A study of Mus musculus with 8 samples.

Results

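The 38 genes described here encode the folding, quality control and protein entry machinery of the endoplasmic reticulum (ER), the compartment in which secreted and membrane proteins are made. They were listed by name, and all 38 were among the 16791 genes of the deposited table. The list holds 9 lumenal chaperones and their co-factors, 2 lectin chaperones, 4 protein disulfide isomerases, 3 transcription factors of the unfolded protein response (UPR), 6 genes of ER-associated degradation, 8 genes of the translocon and the translocon-associated protein (TRAP) complex, 4 signal peptidase subunits and 2 KDEL receptors.

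Endothelial cells (EC) were sorted from the ventricles of adult Pdgfb-iCreERT2-R26R-Brainbow2.1 mice of both sexes, aged 8 to 10 weeks, in which a Cre driven by Pdgfb switches on the Confetti reporter in Pdgfb-lineage EC. All 8 mice received 150 mg/kg tamoxifen. In 4 of them, myocardial infarction (MI) was produced 14 days later by tying off the left anterior descending (LAD) artery, and these hearts were taken 7 days post-MI. The other 4 were healthy controls without surgery, and their hearts were taken at the same 21 days after tamoxifen. CD31+Confetti+Podoplanin- cells gave 1 10X Chromium 3′ library per mouse, so the data hold reporter-labelled EC of the whole ventricles rather than EC of the infarct border alone. Mice are named by their group and label number (Healthy 227, 228, 239 and 240, and MI 244, 250, 255 and 256).

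New proteins enter the ER through the SEC61 channel, aided by the TRAP complex, and signal peptidase removes their signal peptides. Chaperones such as BiP, encoded by Hspa5, and GRP94, encoded by Hsp90b1, together with the calnexin and calreticulin cycle and the disulfide isomerases, then fold them, while proteins that fail are passed back to the cytosol for degradation. When unfolded proteins accumulate, the UPR raises this machinery through ATF6 and spliced XBP1, and the PERK branch acts through ATF4 and CHOP, the product of Ddit3. EC secrete basement membrane and clotting proteins through this pathway.

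A known regulatory feature of the family is the ER stress response element (ERSE), so the promoters of the members were searched for it. RefSeq promoter windows (GRCm38.p6, 250 bases before to 50 after each start site) were found for 30 of the 38 genes. Both strands were searched for ERSE (CCAAT, then 9 bases of any kind, then CCACG) and ERSE-II (ATTGG, then 1 base of any kind, then CCACG), which share the letters CCACG. ERSE was found in 8 members (Hspa5, Hsp90b1, Dnajc3, Creld2, Calr, Canx, Pdia6 and Syvn1), and ERSE-II in 2 others (Dnajb11 and Herpud1). These 10 of 30 compare with 0.181% of all 27025 genes that have a window in the same table, the members included. Since the element was searched for as a known feature of this family, the excess is not an independent result. The UPR element (TGACGTGG, which ends in the reverse complement of CCACG), the C/EBP-ATF site (TGATGNAAT) and the CRE (TGACGTCA) had no exact match in any member's window, against 0.714%, 1.08% and 2.03% of all genes. The matches in the main chaperones are shown in the direction of the motif, with its fixed letters in capitals, to let them be set beside each other. Hsp90b1 held 2 of them, and its second match and that of Calr lay on the strand opposite to the gene.
Hspa5: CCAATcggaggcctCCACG
Hsp90b1, first: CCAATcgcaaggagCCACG
Hsp90b1, second: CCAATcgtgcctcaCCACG
Calr: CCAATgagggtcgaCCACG

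The 250 bases before the start site are printed whole for 3 members, the ones of the 10 with a match that passed the test after MI (3 of 10, against 24.7% of all genes tested). These were Canx, with ERSE, which rose, Syvn1, with ERSE, which fell, and Herpud1, with ERSE-II, which fell. The other 7 with a match (Hspa5, Hsp90b1, Dnajb11, Dnajc3, Creld2, Calr and Pdia6) did not pass. Coordinates are those of GRCm38, and each sequence reads 5′ to 3′ on the strand of its gene with the fixed letters of the motif in capitals. The Canx window lies at chr11:50325674-50325923 on the minus strand, the Herpud1 window at chr8:94386179-94386428 on the plus strand and the Syvn1 window at chr19:6046326-6046575 on the plus strand. A match describes the letters in the window and does not show binding of a factor.
Canx: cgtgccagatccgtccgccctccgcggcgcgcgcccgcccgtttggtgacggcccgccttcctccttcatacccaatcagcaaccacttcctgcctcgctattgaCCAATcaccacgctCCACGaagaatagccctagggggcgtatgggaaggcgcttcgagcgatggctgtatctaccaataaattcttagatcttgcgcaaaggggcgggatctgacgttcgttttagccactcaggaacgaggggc
Herpud1: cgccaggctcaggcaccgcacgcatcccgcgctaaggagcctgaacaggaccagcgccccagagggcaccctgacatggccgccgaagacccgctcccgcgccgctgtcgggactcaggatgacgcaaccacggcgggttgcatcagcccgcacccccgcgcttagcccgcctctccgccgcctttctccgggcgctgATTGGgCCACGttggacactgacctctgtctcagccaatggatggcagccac
Syvn1: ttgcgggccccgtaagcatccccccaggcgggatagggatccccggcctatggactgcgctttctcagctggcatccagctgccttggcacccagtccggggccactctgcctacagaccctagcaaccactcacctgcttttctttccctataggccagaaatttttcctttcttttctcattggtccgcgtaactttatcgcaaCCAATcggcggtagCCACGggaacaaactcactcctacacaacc

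The authors deposited 31028 cells. Total unique molecular identifiers (UMIs) ranged from 6764977 to 8793655 per healthy mouse and from 15865234 to 27244947 per MI mouse. Some healthy cells were present in more than 1 mouse: 2030 cells of Healthy 228 (55.3% of its cells), 301 of Healthy 227 and 2 of Healthy 239 carried the barcode and at least 90% of the UMIs of a cell in another mouse, and these were left out. Cells with UMIs of other cell types were also left out, and each remaining cell was reduced at random to 1000 UMIs, which gave 1543 to 3334 cells per healthy mouse and 3409 to 4796 per MI mouse. Values are given as counts-per-million units (CPM) of the UMIs summed over the cells of a mouse, scaled by TMM, and every difference was tested with edgeR, with P values adjusted over all genes tested. Summed haematopoietic markers remained at 41.2 to 176 CPM in the healthy and 324 to 569 CPM in the MI mice, and fibroblast markers at 11.1 to 19.2 and 21.0 to 38.2 CPM. Their part in the differences between groups was not tested. When the limit of 1% on such cells was set to 0.5% or 2% or removed, the 6 members that rose between healthy and MI mice stayed the same, while those that fell were Dnajb9, Herpud1 and Syvn1 at 0.5%, Dnajb9, Ddit3 and Herpud1 at 2%, and all 4 of these genes with no limit, against 12.3% to 13.1% of genes higher and 12.3% to 12.4% lower. The pan-endothelial markers summed to 5457 to 5904 CPM in healthy and 4951 to 5210 CPM in MI mice, and none of the 6 was at 0. Capillary markers were lower in the MI mice, summing to 26000 to 32040 CPM in healthy and 17400 to 24150 CPM in MI mice, and cells with Car4 in the classes used below made up 20.4% to 24.7% of healthy and 3.88% to 13.6% of MI cells. The part of this shift in the differences over all EC was not tested.

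In all EC together, 6 members were higher and 3 were lower in the MI mice, and 29 did not pass the test. That is 23.7% of the members, against 24.7% of the 10672 genes tested (12.4% higher and 12.2% lower), so the number of members called was close to the background. The number lower depended on the processing: it was 1 with library size only or with no filter on low counts (9.16% and 8.39% of all genes lower), 5 with copied cells kept (12.2%) and 7 with no thinning (18.7%). The median log2 fold change over the members was -0.01, against -0.02 over all genes tested. Of the 8 translocon and TRAP genes, 4 were higher and none was lower. Of the 6 genes of ER-associated degradation none was higher and 2 were lower, and of the 9 lumenal chaperones 1 was lower. Each group is small, and its count was not tested against other genes.

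**Figure D1:**
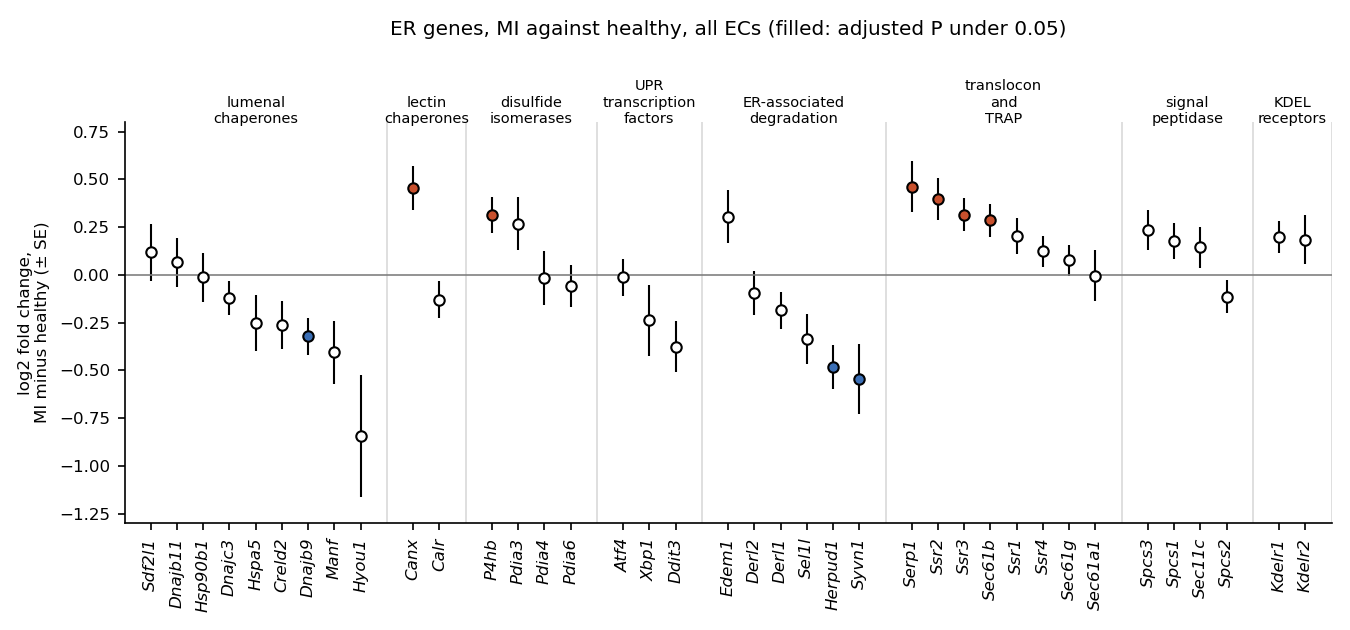
Log2 fold change of each of the 38 ER genes, MI minus healthy, in all EC (vertical axis, points with SE, 4 mice per group), arranged by function. Filled points passed the test (orange higher, blue lower): 4 of the 6 higher members lie in the translocon and TRAP group, and the lower ones are Dnajb9, Herpud1 and Syvn1.

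Canx encodes calnexin, the membrane-bound lectin chaperone that holds new glycoproteins until they are folded. Its levels were 175, 135, 162 and 154 CPM in Healthy 227, 228, 239 and 240, and 249.3, 201, 225 and 184 CPM in MI 244, 250, 255 and 256. The lowest MI mouse was above the highest healthy mouse. The means were 157 ± 16.5 and 215 ± 28.4 CPM (SD, n = 4 each), a log2 fold change of 0.45 ± 0.11 (SE, edgeR adjusted P = 0.0141). Calr, which encodes its soluble counterpart calreticulin, had 431 ± 50.5 CPM in healthy and 394 ± 13.8 CPM in MI mice, with overlapping groups (adjusted P = 0.350).

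Among the disulfide isomerases, P4hb, which also serves as the beta subunit of collagen prolyl 4-hydroxylase, rose. It had 73.9, 87.0, 70.4 and 75.2 CPM in the healthy mice and 91.1, 94.4, 92.2 and 101 CPM in the MI mice. The groups did not overlap, and the log2 fold change was 0.31 ± 0.09 (adjusted P = 0.0299). Pdia3, the isomerase that works with calnexin and calreticulin, had 412 ± 51.5 against 496 ± 91.9 CPM (adjusted P = 0.175), and Pdia4 and Pdia6 had log2 fold changes of -0.02 and -0.06.

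The genes of protein entry that rose were Serp1, Ssr2, Ssr3 and Sec61b. Serp1 encodes a small protein that binds the SEC61 channel and is known as stress-associated. It had 63.4, 51.1, 69.1 and 75.5 CPM in the healthy mice and 103, 84.9, 98.3 and 74.9 CPM in the MI mice, so MI 256 fell within the healthy range (log2 fold change 0.46 ± 0.13, adjusted P = 0.0264). Ssr2 and Ssr3 encode subunits of the TRAP complex, and neither overlapped between groups. Ssr2 had 132, 128, 177 and 152 CPM in the healthy mice and 205, 192, 203 and 178 CPM in the MI mice (log2 fold change 0.40 ± 0.11, adjusted P = 0.0234). Ssr3 had 115, 104, 103 and 110 CPM in the healthy mice and 137, 137, 139 and 124 CPM in the MI mice (log2 fold change 0.32 ± 0.09, adjusted P = 0.0202). Sec61b, the beta subunit of the channel, had 202, 184, 217 and 208 CPM in the healthy mice and 254, 229, 254 and 253 CPM in the MI mice (log2 fold change 0.28 ± 0.09, adjusted P = 0.0323). Its groups were separate as well. The other 4 genes of this group, Ssr1, Ssr4, Sec61a1 and Sec61g, had log2 fold changes from -0.0039 to 0.20 and did not pass the test. None of the 4 signal peptidase subunits or the 2 KDEL receptors, which return escaped ER proteins from the Golgi, passed either, with log2 fold changes from -0.11 (Spcs2) to 0.23 (Spcs3).

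The 3 members that fell belong to ER-associated degradation (Herpud1 and Syvn1) and the lumenal chaperones (Dnajb9). Herpud1, an ER membrane protein that assembles the degradation complex, had 104, 111, 134 and 129 CPM in the healthy mice and 74.5, 95.6, 81.6 and 91.3 CPM in the MI mice. No MI mouse reached the healthy range, and the log2 fold change was -0.48 ± 0.12 (adjusted P = 0.0109). Syvn1 encodes HRD1, the ubiquitin ligase of that complex. Its levels were low, at 14.7, 16.6, 19.0 and 17.8 CPM in the healthy mice and 8.64, 14.2, 11.4 and 12.6 CPM in the MI mice, and the groups did not overlap (log2 fold change -0.55 ± 0.18, adjusted P = 0.0488). Dnajb9, a co-chaperone of BiP, had 79.9, 79.4, 83.8 and 94.7 CPM in the healthy mice and 63.1, 69.3, 65.8 and 73.1 CPM in the MI mice (log2 fold change -0.32 ± 0.10, adjusted P = 0.0287). Its groups did not overlap either. The remaining degradation genes had log2 fold changes of -0.34 (Sel1l, adjusted P = 0.0833), -0.19 (Derl1), -0.09 (Derl2) and 0.30 (Edem1, adjusted P = 0.125).

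Hspa5, Xbp1, Atf4 and Ddit3, often used as readouts of ER stress, did not pass the test, whereas Herpud1 and Dnajb9 above were lower. Hspa5 had 432, 336, 563 and 499 CPM in the healthy mice and 402, 386, 428 and 325 CPM in the MI mice, with overlapping groups (log2 fold change -0.25 ± 0.15, adjusted P = 0.229). Xbp1 had 146, 119, 225 and 229 CPM in the healthy mice and 157, 153, 174 and 132 CPM in the MI mice (log2 fold change -0.24 ± 0.19, adjusted P = 0.372). For both genes Healthy 239 and 240 were higher than Healthy 227 and 228, and the spread among healthy mice was wider than that among MI mice. Manf, a secreted chaperone co-factor, showed the same split, with 213, 143, 280 and 264 CPM in the healthy mice against 169 to 173 CPM in the 4 MI mice (adjusted P = 0.0918). Healthy 227 and 228 were also the mice from which 301 and 2030 copied cells had been left out, and with copied cells kept Hspa5 and Manf were called lower in MI mice while Xbp1 did not pass. The part of the copied cells in this split was not tested. Atf4 had 143, 158, 138 and 162 CPM in the healthy mice and 141, 165, 135 and 154 CPM in the MI mice, a log2 fold change of -0.01 ± 0.10 (adjusted P = 0.946) whose sign turned when CPM were not scaled by TMM. Ddit3 had 36.7, 40.8, 37.3 and 39.3 CPM in the healthy mice and 24.8, 28.2, 28.7 and 37.3 CPM in the MI mice, of which only MI 256 reached the healthy range (log2 fold change -0.38 ± 0.13, adjusted P = 0.0598). Counts of transcripts cannot show the splicing of Xbp1 or the translation of Atf4, through which these factors are known to be switched on.

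**Figure D2:**
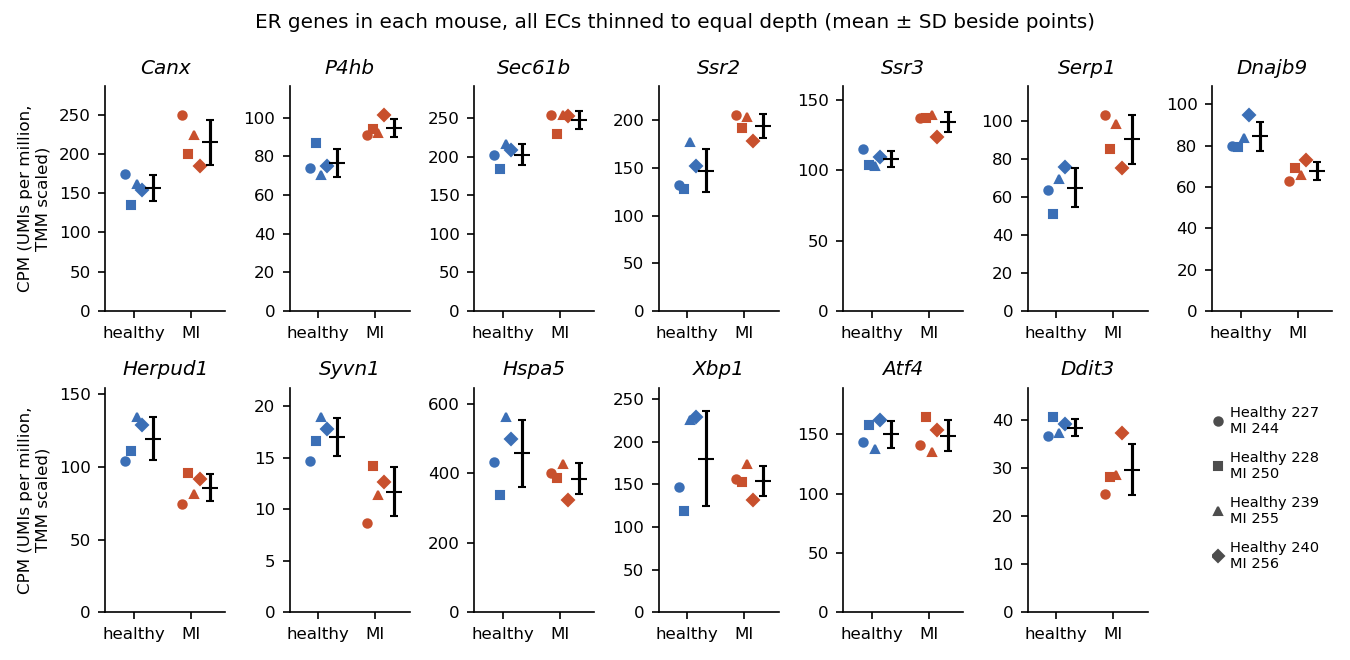
CPM (TMM scaled, thinned cells) of the 9 called members and of Hspa5, Xbp1, Atf4 and Ddit3 in each mouse, with mean ± SD beside the points (blue healthy, orange MI, 1 symbol per mouse). The groups are separate for 8 of the 9 called members, and for Serp1 MI 256 (74.9 CPM) lies within the healthy range.

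The CPM of 11 members (28.9%) did not overlap between groups, against 26.6% of all genes tested, a share close to the background. The calls at this depth rest on few mice. Canx and Herpud1 passed in 8 of 8 fits that left out 1 mouse, whereas P4hb passed in 1, Syvn1 in 2, Dnajb9, Sec61b and Ssr2 in 3, and Ssr3 and Serp1 in 4. Each mouse left out cost at least 1 of the 9 calls, and without MI 244 or without MI 255 only Canx and Herpud1 were called, against 16.2% and 17.0% of genes. Without Healthy 228, the mouse with the most copied cells, 3 members were higher (Canx, P4hb and Ssr3) and 3 lower (Dnajb9, Manf and Herpud1), against 11.1% and 10.3% of genes. The directions of all 9 were the same in every such fit. Of the 16 settings that kept all mice, Canx, P4hb and Ssr2 passed in 16, Herpud1 and Ssr3 in 15, Sec61b and Serp1 in 14, Dnajb9 in 12 and Syvn1 in 8. With another random thinning Dnajb9 had a log2 fold change of -0.23 and did not pass (adjusted P = 0.158, over all 16 settings 0.0165 to 0.341). With all UMIs of each cell in place of 1000, all 9 were called again, together with Edem1 and Kdelr1 as higher and Hyou1, Dnajc3, Ddit3 and Sel1l as lower, against a background of 18.4% of genes higher and 18.7% lower (37.1% in either direction). Without the cells of the Top2a and Plvap-high classes described below, the same 6 members were higher and Dnajb9 and Herpud1 lower, against 11.8% and 11.7% of genes, and Syvn1 did not pass.

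Summed over all 38 genes, ER transcripts made up 5.77, 4.80, 6.01 and 5.69 of every 1000 UMIs in the healthy mice and 6.40, 5.90, 6.34 and 5.50 in the MI mice. The groups overlapped. Counted as the share of cells with at least 1 UMI, 12 members (31.6%) did not overlap between groups, 10 with every MI mouse above and 2 below, against 27.2% of all genes tested (18.2% above and 9.0% below). With 500 UMIs per cell 7 members (18.4%) did not overlap, against 22.8% of genes. Without 1 mouse 12 to 17 did not, against 29.4% to 38.3% of genes, the most (44.7%) without Healthy 239 or MI 256, where 3518 and 4089 of the 10672 genes did not overlap. Canx was found in 13.8 ± 1.49% of healthy and 19.5 ± 2.61% of MI cells, and Herpud1 in 10.8 ± 1.38% and 8.31 ± 0.86%. Free RNA can place a UMI in a droplet whose cell does not express the gene, and no cell type here is known to lack the ER genes, so no background share was measured for them. Lyz2, a macrophage gene that EC should lack, had a UMI in 2.32% of healthy and 14.2% of MI EC at 1000 UMIs per cell, against 82.1% and 93.8% of the haematopoietic cells left out. Before thinning, the median UMIs were 2185 and 4141 in these EC and 5281 and 6987 in the haematopoietic cells. The part of free RNA in the shares of the members was not tested.

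Cells were next divided by marker UMIs, to compare the ER genes across EC classes. A cell with at least 1 UMI of Top2a, a cell cycle gene, formed the Top2a class. Of the others, cells with at least 3 UMIs of Plvap were called Plvap-high, cells with Gja4, an arterial gene, formed the Gja4 class and cells with Car4, a capillary gene, the Car4 class, while 69.1% to 74.6% of the cells of a mouse held none of these. Within MI mice the classes differed in the markers that the rule had not used: Mki67 had 472 CPM in the Top2a class and 14.6 CPM in the Car4 class, Lrg1 2117 and 48.1 CPM in the Plvap-high and Car4 classes, and Fbln5 993 and 20.9 CPM in the Gja4 and Car4 classes. The classes hold background as well. The haematopoietic cells left out should lack these markers, yet at 1000 UMIs per cell 3.86% of those of MI mice held Gja4, 1.40% held Car4 and 2.02% held 3 UMIs of Plvap, against 8.47%, 10.2% and 4.26% of EC. In healthy mice 3.25% of 123 such cells held Gja4 and 2.44% held Car4, against 6.19% and 22.6% of EC. Whether these cells include doublets with EC, and the part of free RNA in the classes, was not tested. The cuts are ranges, since 543 Top2a class cells held a single UMI of Top2a against 247 with more, and 517 cells held 2 UMIs of Plvap, just under the limit, against 289 with 3. MI mice held 51 to 333 Plvap-high and 89 to 236 Top2a class cells each, and 146 to 654 Car4 class cells. Healthy mice held 0 to 3, 17 to 30 and 358 to 701, so the first 2 of these classes were compared with the Car4 class in MI mice, with the mouse as a block.

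The Top2a class of MI hearts had the most members called, 8 higher and 3 lower than in the Car4 class of the same mice, against a background of 12.1% of genes higher and 9.58% lower (21.7% in either direction). Of the 8 higher members, 4 were lumenal chaperones or their co-factors, a group of 9 in the list from which Hyou1 was not tested here. With no filter on low counts Hspa5 and Creld2, of these 4, did not pass. Dnajb9, also a lumenal chaperone of the list, went the other way and did not pass. Its means were 50.6 CPM in the Top2a and 80.2 CPM in the Car4 class. Hsp90b1, which encodes GRP94, had 561, 551, 682 and 716 CPM in the Top2a class and 364, 312, 281 and 303 CPM in the Car4 class of MI 244, 250, 255 and 256. It was higher in 4 of 4 mice with no overlap (log2 difference 0.94 ± 0.12, adjusted P = 4.3e-11). Hspa5 had 548, 492, 480 and 443 CPM against 335, 373, 491 and 319 CPM, higher in 3 of 4 mice (0.42 ± 0.12, adjusted P = 0.00502). Creld2, a secreted ER protein induced by the UPR, had 65.8, 73.8, 82.1 and 79.5 CPM against 35.1, 41.4, 49.1 and 34.0 CPM (0.88 ± 0.30, adjusted P = 0.0221), and Manf was higher by 0.59 ± 0.16 (adjusted P = 0.00409). Both were higher in 4 of 4 mice. The limit of the filter on low counts, which 36 of the 38 members passed, was reached for Creld2 in the Top2a class of all 4 MI mice but not in the Car4 class of all 4.

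Atf4, which did not pass the test between healthy and MI mice, was higher in the Top2a class, with 167, 295, 265 and 205 CPM against 147, 172, 112 and 160 CPM in the Car4 class (0.64 ± 0.17, adjusted P = 0.00193). It was higher in 4 of 4 mice. Ssr1, the alpha subunit of TRAP, had 219, 153, 246 and 159 CPM against 115, 123, 84.2 and 120 CPM (0.73 ± 0.18, adjusted P = 0.00113). Kdelr2, a KDEL receptor, was higher by 0.62 ± 0.18 (adjusted P = 0.00435) and P4hb by 0.61 ± 0.22 (adjusted P = 0.0323), although MI 250 for Kdelr2 and MI 244 for P4hb had near-equal values in both classes. Without 1 mouse the difference of Kdelr2 ran from 0.48 to 0.97.

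Xbp1 went the other way in these cells. It had 110, 123, 101 and 56.8 CPM in the Top2a class and 160, 155, 154 and 141 CPM in the Car4 class, lower in 4 of 4 mice (-0.60 ± 0.21, adjusted P = 0.0271). Calr had 408, 217, 265 and 193 CPM against 489, 379, 281 and 358 CPM (-0.45 ± 0.14, adjusted P = 0.0112). Herpud1 had 48.2, 83.7, 63.1 and 79.5 CPM against 79.9, 115, 98.3 and 149 CPM (-0.71 ± 0.25, adjusted P = 0.0287). Calr and Herpud1 were lower in 4 of 4 mice. Hsp90b1, Atf4 and Ssr1 passed in each of 8 fits that left out 1 mouse, whereas without MI 244 Hspa5, Manf, Creld2, Kdelr2, Xbp1 and Herpud1 were not called. Creld2 was also lost without MI 250 or 256, Calr without MI 250 or 256, P4hb without MI 255 or 256, Xbp1 without MI 255 or 256 and Herpud1 without any other MI mouse. The directions were the same in all these fits. With limma-voom Xbp1 (-0.58, adjusted P = 0.0653) and Herpud1 (-0.65, adjusted P = 0.0692) did not pass, and with no filter on low counts Hspa5, Creld2 and P4hb did not. Over the 6 settings that kept all mice the adjusted P of Xbp1 ran from 0.00121 to 0.0653 and that of Herpud1 from 1.1e-04 to 0.0692.

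**Figure D3:**
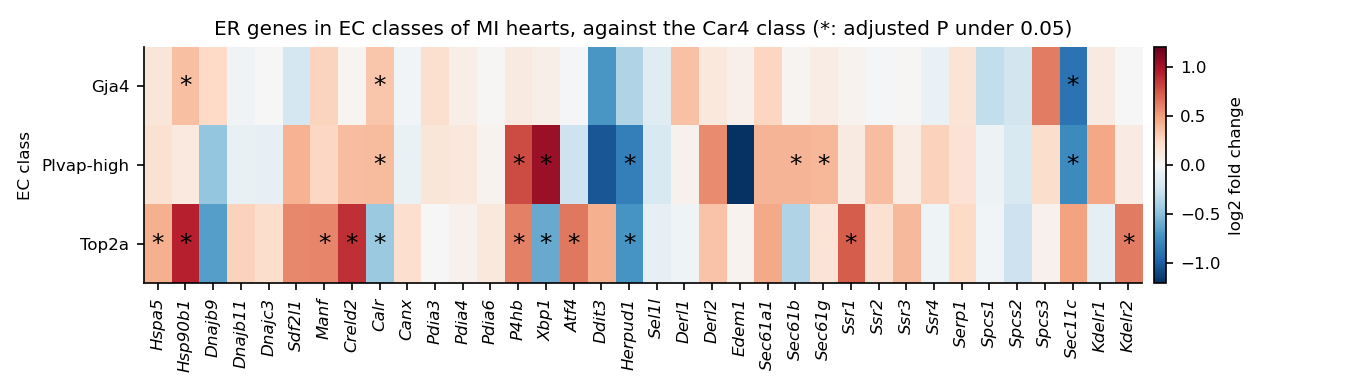
Log2 difference of each ER gene tested (columns) between 1 EC class and the Car4 class of the same MI mice (rows), as colour from blue (lower) to red (higher), with asterisks at adjusted P under 0.05. Xbp1 is higher in the Plvap-high row and lower in the Top2a row, and Hsp90b1 is highest in the Top2a row.

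The Plvap-high class had 5 members higher and 2 lower than the Car4 class of MI mice, against 8.11% of genes higher and 7.92% lower (16.0% in either direction). Plvap encodes the diaphragm protein of fenestrated and caveolar endothelium. Here Xbp1 was the leading member, with 284, 228, 435 and 215 CPM in the Plvap-high class of MI 244, 250, 255 and 256 against 160, 155, 154 and 141 CPM in the Car4 class. The classes did not overlap (log2 difference 1.03 ± 0.17, adjusted P = 5.1e-07), and without MI 255 the difference was 0.67 ± 0.21 (adjusted P = 0.0181). P4hb had 139, 94.9, 148 and 234 CPM against 79.9, 94.0, 70.2 and 91.6 CPM (0.78 ± 0.23, adjusted P = 0.00677), with near-equal values in MI 250. Calr was higher by 0.38 ± 0.13 (adjusted P = 0.0336), Sec61b by 0.40 ± 0.15 (adjusted P = 0.0478) and Sec61g, the gamma subunit of the channel, by 0.40 ± 0.13 (adjusted P = 0.0170). Unlike in the Top2a class, Hsp90b1 had a log2 difference of 0.11 ± 0.14 here (adjusted P = 0.702) and Hspa5 0.18 ± 0.13 (adjusted P = 0.428). The Plvap-high and Top2a classes were not tested against each other.

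Herpud1 had 84.5, 56.9 and 54.8 CPM in the Plvap-high cells of MI 244, 250 and 255. In the 51 such cells of MI 256 it had no UMI, which allows a level of up to 58.8 CPM before scaling (3 UMIs of the class). The log2 difference from the Car4 class was -0.82 ± 0.28 (adjusted P = 0.0253), and in MI 244 the Plvap-high class was slightly the higher of the 2. The difference was -1.198 without MI 244 and -0.51 without MI 256. Sec11c, a catalytic subunit of signal peptidase, had 36.2, 66.4, 74.2 and 58.6 CPM against 79.9, 78.1, 133 and 99.4 CPM and was lower in 4 of 4 mice (-0.76 ± 0.27, adjusted P = 0.0416). With a limit of 5 Plvap UMIs, Xbp1 was still higher (log2 difference 1.41 ± 0.22, adjusted P = 3.1e-08) and the other 4 higher members and Herpud1 did not pass. With no filter on low counts Calr, Sec61b, Sec61g and Sec11c did not pass, and Sec11c passed neither with limma-voom nor with copied cells kept. Leaving out 1 mouse cost the call of every one of the 7 but Xbp1: P4hb without MI 255 or 256, Calr and Herpud1 without MI 250, 255 or 256, Sec61g without MI 244 or 255, Sec11c without MI 244, 255 or 256, and Sec61b without Healthy 227 or 239 or MI 244, 255 or 256. The difference of Calr was 0.22 without MI 255, and that of Sec61b was 0.24 without MI 256.

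**Figure D4:**
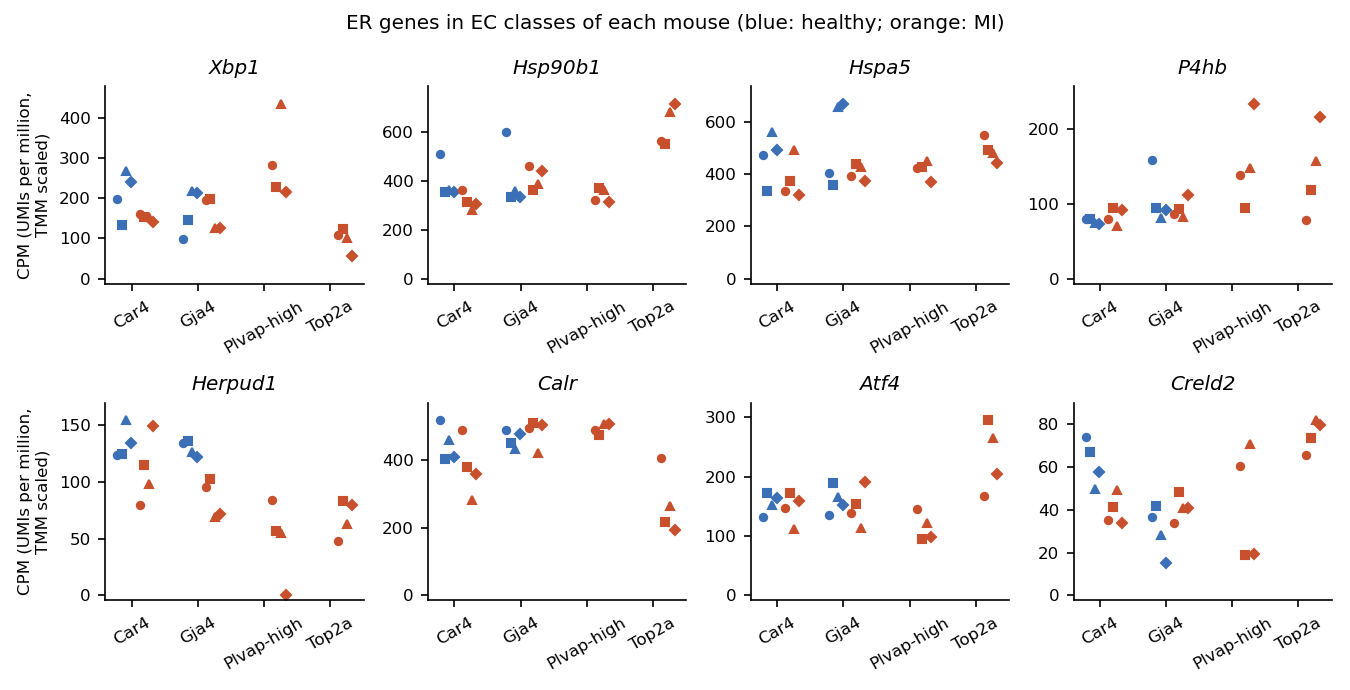
CPM (TMM scaled) of 8 ER genes in each EC class of each mouse (blue healthy, orange MI, 1 symbol per mouse; classes with fewer than 20 cells in a mouse, and the Top2a class of healthy mice, are not drawn). Xbp1 spans 215 to 435 CPM in the Plvap-high and 56.8 to 123 CPM in the Top2a class of MI mice, and Hsp90b1 551 to 716 CPM in the Top2a class.

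In the Gja4 class, 2 members were higher and 1 lower than in the Car4 class of MI mice, against 5.91% and 4.92% of genes (10.8% in either direction). Hsp90b1 had 461, 363, 385 and 439 CPM against 364, 312, 281 and 303 CPM (0.36 ± 0.11, adjusted P = 0.0189), and was called in neither the fit without MI 244 nor that without MI 256. Calr had 495, 511, 423 and 504 CPM against 489, 379, 281 and 358 CPM (0.33 ± 0.11, adjusted P = 0.0351), a call lost without MI 250, 255 or 256. Both were higher in 4 of 4 mice. With no filter on low counts neither passed (adjusted P = 0.0651 for Hsp90b1 and 0.0872 for Calr), and with limma-voom Calr did not (0.0600). Over the 6 settings that kept all mice the adjusted P ran from 0.00163 to 0.0651 and from 0.0268 to 0.0872. Sec11c was lower, with 50.6, 51.4, 69.4 and 34.0 CPM against 79.9, 78.1, 133 and 99.4 CPM (-0.89 ± 0.22, adjusted P = 0.00174, lost without MI 256). With classes drawn from all UMIs (at least 2 UMIs of Top2a, Gja4 or Car4, or 3 of Plvap per 1000) and no thinning its difference was -0.14 ± 0.11 and did not pass (adjusted P = 0.437).

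Among healthy mice, Sdf2l1 and Creld2 were lower in the Gja4 than in the Car4 class and no member was higher, against 5.39% and 5.61% of genes (11% in either direction). Sdf2l1, a co-factor of BiP, had no UMI in the Gja4 class of Healthy 227 and 228, which allows up to 35.3 and 29.4 CPM before scaling, and 14.1 and 7.61 CPM in Healthy 239 and 240. Its levels in the Car4 class were 43.9, 32.0, 43.4 and 27.9 CPM (-2.15 ± 0.56, adjusted P = 0.00324). The Gja4 class held 5 UMIs of Sdf2l1 in all, and the size of the difference was unstable: it was -3.19 without Healthy 239, -1.89 without Healthy 227 and -1.39 ± 0.27 with classes drawn from all UMIs and no thinning, although it passed in each of these fits. Creld2 had 36.7, 41.9, 28.2 and 15.2 CPM against 73.9, 67.1, 49.6 and 57.5 CPM (-1.005 ± 0.35, adjusted P = 0.0479), and it passed in 1 of 8 fits that left out a mouse and in 2 of the 6 settings that kept all mice. With classes drawn from all UMIs and no thinning its difference was -0.31 ± 0.20 and did not pass (adjusted P = 0.392). In MI mice the same contrast of Sdf2l1 did not pass. The difference between the groups in the Gja4 against Car4 contrast was tested directly, and no member passed, against 0.362% of genes (0.173% higher and 0.189% lower), and limma-voom called 0. At an unadjusted P below 0.05 in edgeR there were 8 of 36 members (22.2%) and 429 of 6360 genes (6.75%). For Sdf2l1 this difference was 1.93 ± 0.72 (adjusted P = 0.465).

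Within 1 class of thinned cells, only the Car4 and Gja4 classes held enough cells in healthy mice to test the change after MI. In the Car4 class, 0 of 36 members tested passed in edgeR, against 7.19% of genes (3.26% higher and 3.93% lower), and DESeq2 also called 0. Of these, 8 (22.2%) had an unadjusted P below 0.05, near the 23.0% of all genes tested: Canx (log2 fold change 0.44 ± 0.17, adjusted P = 0.123), Sec61b, Ssr2 and Sec11c with positive and Manf, Creld2, Xbp1 and Derl1 with negative values. In the Gja4 class, 0 of 33 passed, against 6.20% of genes (2.52% higher and 3.68% lower), with 0 in DESeq2. At an unadjusted P below 0.05 there were 4 of the 33 members (12.1%), below the 18.2% of all genes tested. These 4 were Canx (0.51 ± 0.20, adjusted P = 0.160) and Serp1 with positive and Hspa5 and Herpud1 (-0.60 ± 0.23, adjusted P = 0.134) with negative values. With classes drawn from all UMIs and no thinning, 4 members were higher (Canx, Ssr2, Serp1 and Sec11c) and 1 lower (Manf) in the Car4 class, against 8.52% and 9.60% of genes (18.1% in either direction). In the Gja4 class the same setting gave 7 higher (Sdf2l1, Canx, Pdia3, Edem1, Sec61b, Ssr2 and Ssr3) and 3 lower (Hspa5, Dnajb9 and Herpud1), against 7.62% and 7.91% of genes (15.5% in either direction). In the Gja4 class of thinned cells the 5 lymphatic markers summed to 0 to 47.1 CPM in the healthy and 55.4 to 358 CPM in the MI mice, against 0 to 15.7 and 3.06 to 75.3 CPM in the Car4 class. In MI mice they summed to 4.24 to 494 CPM in the Top2a and 11.4 to 150.4 CPM in the Plvap-high class. Ccl21a made up most of the sum in the Gja4 class, at 8.82 and 149 CPM, and 0.559% to 1.63% of the Gja4 class cells of MI mice held a UMI of it. Lyve1, Pdpn and Prox1 were at 0 in the Gja4 class of healthy mice and at 9.36, 6.23 and 4.66 CPM in that of MI mice. Their part in these differences was not tested.

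The same setting raised the counts between classes for members and background alike. In the Top2a class of MI mice 16 members were higher and 5 lower than in the Car4 class, the 8 and 3 named above among them, against 20.8% and 22.4% of genes (43.2% in either direction). In the Plvap-high class 11 were higher and 3 lower, against 15.9% and 11.6% of genes (27.5% in either direction); these held all 5 higher members named above, and of the lower ones Herpud1 but not Sec11c (-0.24 ± 0.15, adjusted P = 0.251). For the Gja4 class of MI mice 4 were higher (Hsp90b1, Calr, Pdia3 and P4hb) and 2 lower (Atf4 and Herpud1), against 12.3% and 9.30% of genes (21.6% in either direction). In healthy mice Hspa5 and Dnajb9 were higher and Sdf2l1 and Pdia6 lower in the Gja4 class, against 8.18% and 7.12% of genes (15.3% in either direction). Sdf2l1 was then the 1 member for which that contrast differed between MI and healthy mice, against 0.539% of genes higher and 0.441% lower (0.980% in either direction).

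It also gave enough Top2a class cells for a test in healthy mice, where 13 members were higher and 3 lower than in the Car4 class, against 12.3% and 11.8% of genes (24.1% in either direction). Hsp90b1, Manf, Creld2, P4hb, Ssr1 and Kdelr2 were among the higher members and Xbp1 and Herpud1 among the lower ones, as in MI mice. All 16 members called in healthy mice were called in the same direction in MI mice at this setting, where 43.2% of all genes were called in MI mice. The share of all genes called in healthy mice that repeated in MI mice is not given here, so no result about the members is drawn from this count. The other 5 called in MI mice, Hspa5, Sdf2l1, Atf4, Calr and Derl1, did not pass in healthy mice, where Hspa5 had a log2 difference of 0.21 ± 0.09 (adjusted P = 0.102), Atf4 0.47 ± 0.20 (adjusted P = 0.0888) and Calr -0.38 ± 0.15 (adjusted P = 0.0628). The Top2a to Car4 difference of Xbp1 was -1.38 ± 0.27 in healthy and -0.47 ± 0.12 in MI mice (log2, adjusted P = 1.4e-04 and 0.00121 in edgeR). The difference between these contrasts was tested, and no member passed in edgeR, against 0.882% of genes higher and 1.41% lower (2.29% in either direction). At an unadjusted P below 0.05 there were 4 of 38 members (10.5%), against 12.9% of all genes tested. Within the Top2a class no member passed between MI and healthy mice, against 0.210% of genes higher and 0.314% lower (0.524% in either direction). Manf and Creld2 had an unadjusted P below 0.05, 2 of 36 members (5.56%), against 14.3% of all genes tested.

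Summed over the members, the classes of MI mice had 6.62 ± 0.40 (Top2a), 6.47 ± 0.44 (Plvap-high), 6.20 ± 0.32 (Gja4) and 5.70 ± 0.45 (Car4) of every 1000 UMIs. Within the same mouse, the sum was higher in the Top2a, Plvap-high and Gja4 classes than in the Car4 class in 4 of 4 MI mice: the Car4 class had 6.21, 5.83, 5.65 and 5.12 in MI 244, 250, 255 and 256, the Gja4 class 6.65, 6.02, 6.20 and 5.92, the Plvap-high class 6.49, 5.85, 6.69 and 6.86, and the Top2a class 6.94, 6.29, 6.99 and 6.26. The cells with none of the class markers were also above the Car4 class in 4 of 4 MI mice, at 6.35, 5.88, 6.31 and 5.45. Across mice the Top2a class did not overlap the Car4 class, whereas the Gja4 and Plvap-high classes did. These sums were not tested. In the 2 healthy mice with at least 20 Top2a class cells, Healthy 227 and 240, the sum was 8.0 and 7.4. The Car4 and Gja4 classes of healthy mice had 5.56 ± 0.58 and 5.70 ± 0.50 (n = 4).

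Other genes of the pathway were counted in 9 further lists, 147 genes of which 135 were tested. Between healthy and MI mice 32 of the 135 were higher and 5 lower, against 12.4% of all genes higher and 12.2% lower. Of the 147, 12 did not pass the filter on low counts, and 7 of the 32 (Fkbp11, Kdelr3, Psat1, Slc7a5, Nupr1, Aldh18a1 and P3h3) reached its limit of 2.97 CPM in all 4 MI mice but in fewer than 4 healthy mice, so the filter favoured them. Without these 7, 25 of 128 were higher, and with no filter 31 of 144 were higher and 6 lower, against 9.08% and 8.39% of genes. The same background of 12.4% and 12.2% stands beside each list count that follows between these groups, and no list was tested against it. The genes of oxidative folding and peptidyl-prolyl isomerases had 7 of 16 higher and none lower (all genes, 12.4% and 12.2%). Fkbp10, a collagen-folding isomerase, had 7.80, 8.98, 4.59 and 7.72 CPM in the healthy mice and 49.8, 29.98, 52.3 and 27.3 CPM in the MI mice (log2 fold change 2.51 ± 0.28, adjusted P = 2.3e-04), and Fkbp11 rose by 1.85 ± 0.38 (adjusted P = 0.00503). The oligosaccharyltransferase, which attaches glycans to new proteins, had 3 of 12 higher, among them Ddost (0.46 ± 0.12) and Stt3a (0.40 ± 0.10). COPI and retrieval genes had 4 of 14 higher, including Kdelr3, the third KDEL receptor, which had 1.38, 2.76, 6.43 and 5.03 CPM in the healthy mice and 19.4, 10.7, 14.99 and 8.52 CPM in the MI mice (1.66 ± 0.37, adjusted P = 0.00824), and Copz1 (0.44 ± 0.10). The COPII and ER exit list had 4 of 28 higher, among them Tmed3 (0.42 ± 0.10) and Lman2 (0.40 ± 0.11), and Sec24a lower (-0.49 ± 0.14).

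Of 20 listed ATF4 target genes 15 passed the filter on low counts, and 9 of these were higher and 1 lower in MI mice, against 12.4% and 12.2% of all genes. Psat1, Slc7a5, Nupr1 and Aldh18a1, 4 of the 9, are among the genes the filter favoured. With no filter 11 of the 20 were higher and 1 lower, against 9.08% and 8.39% of genes, while Atf4 itself did not pass the test. Cells of the Top2a and Plvap-high classes were more frequent in MI mice, with cycling markers at 73.3 to 110 CPM in healthy and 332 to 594 CPM in MI mice and Plvap-high markers at 3491 to 3885 and 5432 to 8556 CPM. Without the cells of both classes the same 9 targets were higher and the same 1 lower, against 11.8% and 11.7% of genes, and the oxidative folding list had 8 of 16 higher. Nupr1, a stress-induced transcription co-factor, had 0.918, 2.07, 1.22 and 1.01 CPM in the healthy mice and 11.7, 8.71, 16.8 and 8.52 CPM in the MI mice (log2 fold change 3.18 ± 0.37, adjusted P = 2.7e-04). Psat1, an enzyme of serine synthesis, rose by 2.70 ± 0.40 (adjusted P = 9.8e-04), and Cebpg, which encodes a partner of ATF4, fell by 0.43 (SE 0.11, adjusted P = 0.0148). The collagen folding list had 4 of 10 higher, including P3h3 (1.85 ± 0.34) and Colgalt1 (0.39 ± 0.11). P4ha1, which encodes the alpha subunit that pairs with the P4hb product, was lower, with 86.3, 56.6, 92.7 and 70.8 CPM in the healthy mice and 40.7, 39.3, 43.7 and 39.1 CPM in the MI mice (-0.93 ± 0.14, adjusted P = 0.00101). The list named for the signal recognition particle and targeting to the ER had 1 higher (Srp68, 0.44 ± 0.14) and 1 lower (Sec62, -0.34 ± 0.09) of 13. The UPR sensors and regulators had 0 higher and 1 lower (Mbtps2, -0.57 ± 0.15) of 13, and the degradation of ER proteins 0 of 14 in either direction.

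**Figure D5:**
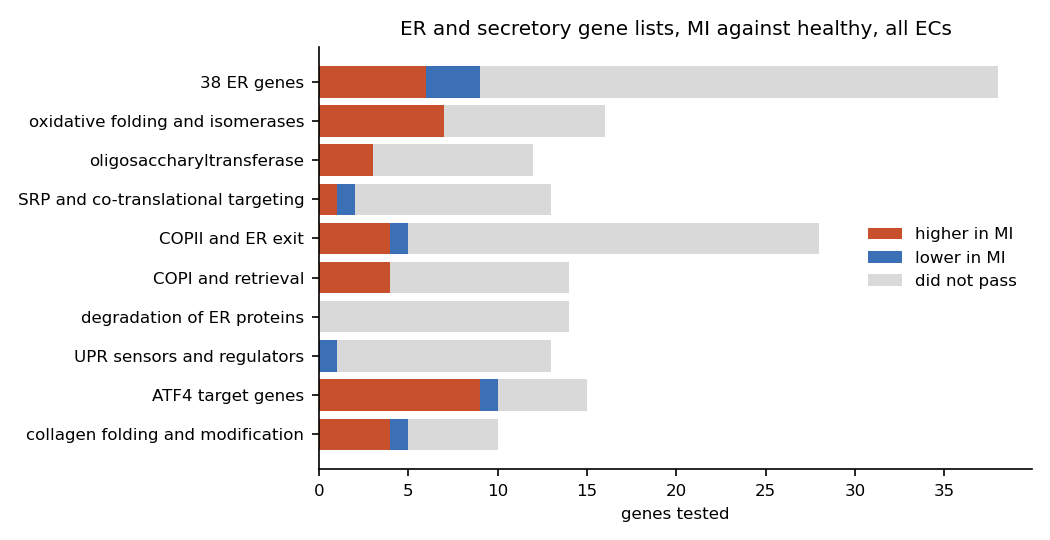
Number of genes tested (horizontal axis) in the 38 ER genes and 9 further lists, split into higher in MI (orange), lower in MI (blue) and not passing (grey), in all EC. The ATF4 targets (9 of 15) and oxidative folding genes (7 of 16) hold more higher genes than lower ones, and the degradation list holds none of either.

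The same lists were counted between classes of MI mice, each against the Car4 class. The background was 12.1% of genes higher and 9.58% lower for the Top2a class, and 8.11% and 7.92% for the Plvap-high class. In the Top2a class 7 of the 11 ATF4 targets that passed the filter, of 20 listed, were higher than in the Car4 class and none lower. For 5 of the 7 (Asns, Psat1, Shmt2, Mthfd2 and Atf5) the limit of the filter, 32.8 CPM, was reached in the Top2a class of all 4 MI mice but not in the Car4 class of all 4, so the filter favoured them. With no filter 8 of 19 were higher and 0 lower, against 4.89% and 4.34% of genes. The differences of Psat1 (3.94 ± 0.54, adjusted P = 6.0e-10) and Mthfd2 (3.20 ± 0.50, adjusted P = 7.0e-08), an enzyme of mitochondrial folate metabolism, rest on 7 and 11 UMIs in the Car4 class against 53 and 51 in the Top2a class. Oligosaccharyltransferase subunits had 5 of 12 higher, with Magt1 (0.93 ± 0.24) and Stt3b (0.88 ± 0.31) leading. The filter favoured Stt3b in the same way, and with no filter 2 of 12 were higher, against 4.89% of genes. In the Plvap-high class 6 of the 13 oxidative folding genes that passed the filter, of 17 listed, were higher and none lower, among them Pdia5 (2.48 ± 0.50, adjusted P = 4.1e-05) and Fkbp10 (1.74 ± 0.31, adjusted P = 3.1e-06), with 16 and 43 UMIs in the Car4 class. Fkbp10 was favoured by the filter in the same way. Pdia5 reached the limit in the Car4 class of 0 MI mice and in the Plvap-high class of 3, so the filter favoured it too. With no filter 3 of 17 were higher, against 3.14% of genes. Of 11 ATF4 targets 2 were higher. Creb3l2, a membrane-bound transcription factor related to ATF6, was higher there by 1.61 ± 0.35 (adjusted P = 1.3e-04), favoured by the filter as well, and Tmbim6, of the same list of 8 UPR sensors and regulators tested, was lower (-0.40 ± 0.11, adjusted P = 0.00556). In the Gja4 class no list had more than 2 genes called, against 5.91% of genes higher and 4.92% lower. Of the 13 oxidative folding genes Pdia5 (1.42 ± 0.48, adjusted P = 0.0377) and Txndc5 (0.87 ± 0.28, adjusted P = 0.0237) were higher there. The filter favoured Pdia5 here as well, since it reached the limit in the Car4 class of 0 and the Gja4 class of 1 MI mouse. Its difference rests on 16 and 38 UMIs in these classes.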

How the data were processed

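UMIs were counted in 8 single-cell libraries. Per the labels and the methods, the authors used Cell Ranger with mm10, Seurat 2.3 and R 3.5.2 (tools and build as named in the submitters' processing notes), and deposited 1 table of raw counts with no normalization, holding cells that passed their filters (lowest 403 genes, highest 19.96% mitochondrial UMIs). The members, lists and tests were chosen with earlier results of these data known, the alternative without Top2a and Plvap-high cells after their shares were seen. Cells sharing a barcode between mice with at least 90% of UMIs matched were counted once. Cells with at least 1% and 5 UMIs of a haematopoietic, plasma cell, pericyte, fibroblast or platelet list, or 5% erythroid, were left out. Each cell was thinned to 1000 UMIs (587 healthy cells under 1000 were left out), leaving 1543000 to 4796000 UMIs per mouse. No doublet caller was run; an alternative left out the 5% of cells with most UMIs. Sums per mouse, or per mouse and class with at least 20 cells, were tested with edgeR 4.0.16 (TMM, filterByExpr, quasi-likelihood) in R 4.3.3 with Benjamini-Hochberg adjustment at 0.05. The fit was also run on simulated data, with the spread between mice set alike for all genes. That run cannot show how the fit does for genes whose mice differ more. DESeq2 1.42.0 and limma 3.58.1 (voom), no thinning, other limits and leaving out each mouse were the alternatives. Values per mouse are given for called members and Hspa5, Xbp1, Atf4 and Ddit3. Per other list, up to 2 called genes with the highest and 2 with the lowest fold change and no overlap between groups are named. Class comparisons name the called members, up to 5 in each direction by fold change, and, chosen after their values were seen, the other 3 higher members of the Top2a class. Per the methods mice of both sexes were used. Which mouse was male or female, and whether the mice of a group share a litter or batch, is not given in the sources used here, and a fit with the log2 CPM of Xist as a covariate was a further alternative.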

Additional observations from a re-analysis of the deposited data

Results flagged for a closer look

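In 3 of 76 groups of 4 mice (38 genes in the healthy and in the MI mice), 1 mouse stood apart from the other 3, judged by its gap to the nearest mouse over the whole range. Chance gives about 1 group in 20, so this is no more than chance gives. Hsp90b1 in Healthy 227 had 453.5 CPM, against 310.2 to 333.5 CPM in the other healthy mice. Sec61b in MI 250 had 229.1 CPM, against 252.9 to 253.5 CPM in the other MI mice. Ssr3 in MI 256 had 123.6 CPM, against 136.9 to 139.0 CPM in the other MI mice.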

How the results depend on the processing

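MI and healthy mice could not be paired because the labels give each mouse its own number, so the groups share none. The comparisons between classes had the mouse as a block. In all EC, members lower (3) became 7 with no thinning, 5 with copied cells kept (Hspa5, Dnajb9, Manf, Ddit3 and Herpud1), 1 with library size only and 1 with no filter on low counts, while members higher stayed within 1.5 times of 6. With the log2 CPM of Xist as a covariate the same 6 were higher and Hyou1 joined the 3 lower, against 11.7% and 11.5% of genes. Without TMM, the median of all genes moved by 0.09 and 64.3% of called genes were higher, against 50.4%. Leaving out 1 mouse gave 1 to 7 members higher and 1 to 4 lower, against 8.47% to 14.0% and 7.69% to 14.0% of genes. Of 208 values of the 13 members followed under settings that kept all mice, 182 kept direction and call, and 3 reversed, all for Atf4: 0.024 with another random thinning, 0.00064 with at most 10% mitochondrial UMIs and 0.076 with library size only. Without 1 mouse its log2 fold change ran from -0.062 to 0.035, above 0 without Healthy 228 or 240 or MI 244 or 255.

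With classes drawn from all UMIs and no thinning, which changes the limits of the classes and the thinning at once, members higher and lower were 4 and 1 (Car4, MI against healthy), 7 and 3 (Gja4, MI against healthy), 4 and 2 (Gja4 in MI), 11 and 3 (Plvap-high) and 16 and 5 (Top2a), with 2 higher for Gja4 in healthy mice and 1 for Gja4 in MI minus healthy. With 5 Plvap UMIs, 1 was higher and 1 lower in the Plvap-high class, and 1 lower for Gja4 in healthy mice. With copied cells kept, 2 were lower in the Car4 class after MI, 1 was higher for Gja4 in healthy mice and 1 lower in the Plvap-high class. With limma-voom, 1 was lower for Gja4 in healthy mice, in the Plvap-high and in the Top2a class, and 1 higher for Gja4 in MI. With no filter, 1 was lower in the Car4 class after MI, 1 lower for Gja4 in healthy mice, 0 higher for Gja4 in MI, 2 higher and 1 lower in the Plvap-high and 5 higher in the Top2a class. Leaving out 1 mouse gave 0 to 1 higher and 0 to 2 lower (Car4 after MI), 0 and 0 (Gja4 after MI), 0 higher and 1 to 2 lower (Gja4 in healthy), 0 to 2 and 0 to 1 (Gja4 in MI), 2 to 5 and 0 to 2 (Plvap-high) and 4 to 8 and 0 to 3 (Top2a). Over all these settings but that with all UMIs, the genes called higher and lower ran from 1.39% to 3.66% and 1.33% to 4.36% (Car4 after MI), 1.47% to 3.23% and 1.23% to 4.35% (Gja4 after MI), 2.15% to 7.37% and 2.54% to 6.85% (Gja4 in healthy), 2.70% to 6.31% and 1.82% to 5.30% (Gja4 in MI), 3.14% to 9.23% and 3.55% to 8.81% (Plvap-high) and 4.89% to 14.0% and 4.34% to 10.2% (Top2a). Members whose shares of cells did not overlap were 7 with 500 UMIs per cell, and 12 to 17 without 1 mouse, and the summed members differed by 0.21 to 0.65 UMIs per 1000.

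Genes called in all EC were 2632, and 4578 with no thinning. With classes drawn from all UMIs and no thinning they went from 435 to 1550 (Car4 after MI), 293 to 1378 (Gja4 after MI), 700 to 1562 (Gja4 in healthy), 689 to 2200 (Gja4 in MI), 1020 to 2809 (Plvap-high), 1380 to 4410 (Top2a) and 23 to 100 (Gja4, MI minus healthy). Plvap-high genes were 671 with 5 Plvap UMIs, the Gja4 difference 35 with copied cells kept, and Car4 genes after MI 242 with DESeq2 and 720 with no filter. The Top2a class was tested against the Car4 class in healthy mice only with all UMIs, where 13 members were higher and 3 lower, against 24.1% of genes called, and with copied cells kept, where P4hb and Kdelr2 were higher and Xbp1 lower, against 6.41% and 8.03% of genes. The difference between groups in that contrast called 0 members in both. The cause of these shifts was not tested.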
